A study of Mus musculus with 22 samples.

Results

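The 9 genes described here encode α- and β-tubulin, 4 α-tubulins (Tuba1a, Tuba1b, Tuba1c and Tuba4a) and 5 β-tubulins (Tubb2a, Tubb3, Tubb4b, Tubb5 and Tubb6). They were chosen by name from the 52526 gene symbols measured in the mammary tissue of 22 mice, and each of the 9 was found once. All mice were female C57BL/6J aged 7 to 8 weeks, and in all of them EO771 cells, a mouse mammary cancer line carrying firefly luciferase, had been engrafted in the left mammary fat pad from which the tissue was taken. For 2 weeks before engraftment a mouse had either a running wheel on its hub (wheel) or the hub alone (control), and it received liposomes filled with PBS or with clodronate, an agent that kills the phagocytes that take it up, a day before engraftment and again at engraftment. Wheel access went on until the tissue was taken, 24 hours after engraftment. The 4 groups were control mice with PBS liposomes (n = 6), wheel-running mice with PBS liposomes (n = 6), control mice with clodronate liposomes (n = 5) and wheel-running mice with clodronate liposomes (n = 5). The RNA came from whole tissue that held host cells and engrafted mouse cells together, so transcripts of the host and of EO771 cells cannot be told apart.

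Microtubules are hollow polymers of paired α- and β-tubulin. They form the mitotic spindle, carry cargo through the cell and hold up the shape of neurons and platelets. Mammals have several tubulin genes, called isotypes, whose proteins are nearly alike along most of their length and differ mainly in a short acidic tail at the end, where enzymes add and remove side chains. Tuba1a and Tubb3 are known as the isotypes of young neurons, Tubb2a is also abundant in nerve, Tuba4a in muscle and platelets, and Tuba1b, Tuba1c, Tubb4b, Tubb5 and Tubb6 are made in many cell types. Cells also keep the amount of tubulin steady, since free tubulin protein speeds the decay of tubulin messenger RNA while it is being translated.

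The isotypes differ most in the part of the coding sequence that encodes the tail, and its last 60 bases are shown for 4 β-tubulins to let their difference be seen. They were read from the GRCm38 genome with the GENCODE M21 models, lie in coding exon and end with the stop codon. The libraries (QuantSeq) read from the 3′ end of the transcript, which lies beyond the stop by 148 bases in the model of Tubb4b, 194 in Tubb2a, 333 in Tubb3 and 1061 in Tubb5, so the bases shown lie before that end. Capitals mark bases that differ from Tubb5, the β-tubulin with the highest level in this tissue, at the same place before the stop.

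Tubb2a (chr13:34074468-34074527, minus strand): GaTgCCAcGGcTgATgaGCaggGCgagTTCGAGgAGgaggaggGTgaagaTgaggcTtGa
Tubb3 (chr8:123421623-123421682, plus strand): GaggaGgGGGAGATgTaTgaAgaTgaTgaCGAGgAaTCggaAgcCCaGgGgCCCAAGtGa
Tubb4b (chr2:25222308-25222367, minus strand): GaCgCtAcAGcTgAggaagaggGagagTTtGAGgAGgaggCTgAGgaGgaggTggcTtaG
Tubb5 (chr17:35834982-35835041, minus strand): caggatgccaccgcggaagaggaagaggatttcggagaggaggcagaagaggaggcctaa

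Tubb4b differed from Tubb5 at 24 of the 60 bases, Tubb2a at 27 and Tubb3 at 33. Over the whole coding sequence the α-tubulin pairs were 84.9% to 98.3% identical, with Tuba1a and Tuba1b the most alike, and the β-tubulin pairs 80.2% to 86.0%. Over the last 400 bases of the transcript identity was lower, 50.2% to 73.0% among α-tubulins and 48.0% to 68.8% among β-tubulins. Tuba1a, Tuba1b and Tuba1c lie near each other on chromosome 15, at 98949837 to 98953703, 98931425 to 98934565 and 99029891 to 99038110.

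Near-identical stretches (97% or more) in other genes covered 50.8% of the last 400 bases of Tuba1a, 60.8% of Tuba1b, 74.8% of Tuba1c and 51.8% of Tubb2a. The other 5 genes had no such stretch. In each of the 4 genes the stretch stopped short of the end, leaving the last 197 bases of Tuba1a, 157 of Tuba1b, 101 of Tuba1c and 193 of Tubb2a without a match. Reads that start further from the end could fit several genes, and reads mapped to several places, which the files list apart from the genes, made up 16.6% to 19.9% of each library. The group median of such reads was 19.6% in wheel clodronate mice and 17.9% to 18.1% in the other groups. The levels of Tuba1a, Tuba1b, Tuba1c and Tubb2a are therefore less certain than those of the other isotypes. The matched genes were, besides Tuba1a and Tuba1b themselves and Tubb2b, processed pseudogenes, and those listed were at the floor of the deposited values in at least 20 of 22 mice.

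The promoters of Tuba1b, the isotype that passed a test below, and of Tuba1c and Tubb5, the pair whose levels followed each other most closely, are shown from 250 bases before to 50 bases after the RefSeq start (GRCm38.p6). Capitals mark matches on either strand to CCAAT (the core of the CCAAT box), TTTGAA (a cell cycle element), ACGTG or GCGTG (cores of the hypoxia response element) and TATAAA (the TATA box).

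Tuba1b (chr15:98934341-98934640, minus strand): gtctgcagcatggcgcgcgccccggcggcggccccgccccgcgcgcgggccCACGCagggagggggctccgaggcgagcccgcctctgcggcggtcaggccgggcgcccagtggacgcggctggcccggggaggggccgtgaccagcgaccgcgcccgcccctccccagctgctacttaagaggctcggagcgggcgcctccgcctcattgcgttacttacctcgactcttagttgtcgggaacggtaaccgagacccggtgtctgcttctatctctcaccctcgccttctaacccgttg
Tuba1c (chr15:99029641-99029940, plus strand): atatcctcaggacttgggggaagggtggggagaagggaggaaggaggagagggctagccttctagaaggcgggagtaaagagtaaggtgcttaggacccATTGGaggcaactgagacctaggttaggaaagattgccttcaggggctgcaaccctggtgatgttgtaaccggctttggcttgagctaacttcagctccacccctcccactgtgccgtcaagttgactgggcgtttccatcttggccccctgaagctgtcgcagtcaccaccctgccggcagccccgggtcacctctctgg
Tubb5 (chr17:35838252-35838551, minus strand): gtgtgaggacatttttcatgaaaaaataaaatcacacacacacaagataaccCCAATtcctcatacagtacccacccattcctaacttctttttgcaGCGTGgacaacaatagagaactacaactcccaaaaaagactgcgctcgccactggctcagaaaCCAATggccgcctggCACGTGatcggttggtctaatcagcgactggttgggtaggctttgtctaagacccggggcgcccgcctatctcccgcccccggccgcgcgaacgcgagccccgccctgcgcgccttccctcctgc

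Tuba1b matched GCGTG once, on the other strand at -199 relative to the start. Tuba1c matched CCAAT once, on the other strand at -151. In Tubb5 the run CACGTG matched ACGTG and its other strand at once. Of the 8 members with a promoter in the reference table, 5 matched CCAAT, found in 37.4% of all 32851 promoters, 6 matched GCGTG (32.4%), 2 TATAAA (13.6%), 1 TTTGAA (17.9%) and 1 ACGTG (19.6%). These are matches of letters only.

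Levels are the deposited CPM, in which a gene's reads are divided by its library's total so that libraries of different depth can be compared. Because a 3′ library gives about 1 read position per transcript whatever its length, levels of different genes can be set side by side without a length correction. Values under 1 CPM had been raised to 1, which is called the floor here and stands for no more than 13 reads in the shallowest libraries and 20 in the deepest. Libraries held 13256467 to 20484578 reads. Reads assigned to genes made up 57.2% to 58.5% of them in wheel clodronate and 58.7% to 63.0% in control clodronate mice. The shares were 58.3% to 63.7% in wheel PBS and 60.4% to 64.5% in control PBS mice. Markers of fat cells and of mammary epithelium were present in every mouse, with mean log2(CPM + 1) from 8.91 to 10.31 and from 5.42 to 7.14. A set of 5 mice stood apart by markers of lymphocytes. Control PBS mouse 2, wheel PBS mouse 3 and wheel clodronate mice 3, 4 and 5 had a mean log2(CPM + 1) over 12 such genes of 4.10 to 5.45, against 1.00 to 1.37 in the other 17 mice. Results that rest on these 5 mice are given with and without them.

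Tubb5 and Tuba1b were the leading isotypes of this tissue. Tubb5 ranged from 125.8 to 322.7 CPM over the 22 mice (median 194) and supplied 60.8% to 83.2% of the CPM of the 5 β-tubulins. Tuba1b ranged from 79.6 to 300.4 CPM (median 143) and supplied 21.3% to 56.7% of the CPM of the 4 α-tubulins. Tuba1a followed with 37.0 to 310.3 CPM (median 73.4), Tuba4a with 27.9 to 262 (median 67.0), Tuba1c with 18.8 to 108.9 (median 40.5) and Tubb4b with 12.9 to 65.6 (median 33.1). Tubb2a (4.36 to 39.3 CPM, median 20.1) and Tubb6 (4.32 to 47.1, median 15.7) were low, and Tubb3 was at the floor in 14 of 22 mice and reached at most 6.08 CPM.

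By mean log2(CPM + 1) the order was Tubb5 (7.65), Tuba1b (7.26), Tuba1a (6.47), Tuba4a (6.24), Tuba1c (5.49), Tubb4b (5.13), Tubb2a (4.08), Tubb6 (4.00) and Tubb3 (1.28). Some neighbours were far apart in every mouse: Tubb4b was above Tubb2a, and Tubb6 above Tubb3, in 22 of 22. Tuba1b was above Tuba1a in 20 mice, and Tubb5 above Tuba1b, Tuba4a above Tuba1c and Tuba1c above Tubb4b in 17 each. The mean difference was smaller than its SD over the 22 mice for Tuba1a and Tuba4a (0.23 ± 1.06, mean difference and SD) and for Tubb2a and Tubb6 (0.07 ± 0.87). It was also smaller for Tubb5 and Tuba1b (0.39 ± 0.50), Tuba4a and Tuba1c (0.75 ± 0.87) and Tuba1c and Tubb4b (0.37 ± 0.62). The SD describes single mice, and the order of the means was not tested. The median over the 22 mice was 3259 reads for Tubb5 and 2245 for Tuba1b, and over the 8 mice in which Tubb3 was above the floor it was 39 reads. Counting error was thus 1.75% for Tubb5 and 16.01% for Tubb3 at these medians, while the CV among all 22 mice was 31.0% and 81.7%.

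**Figure D1:**
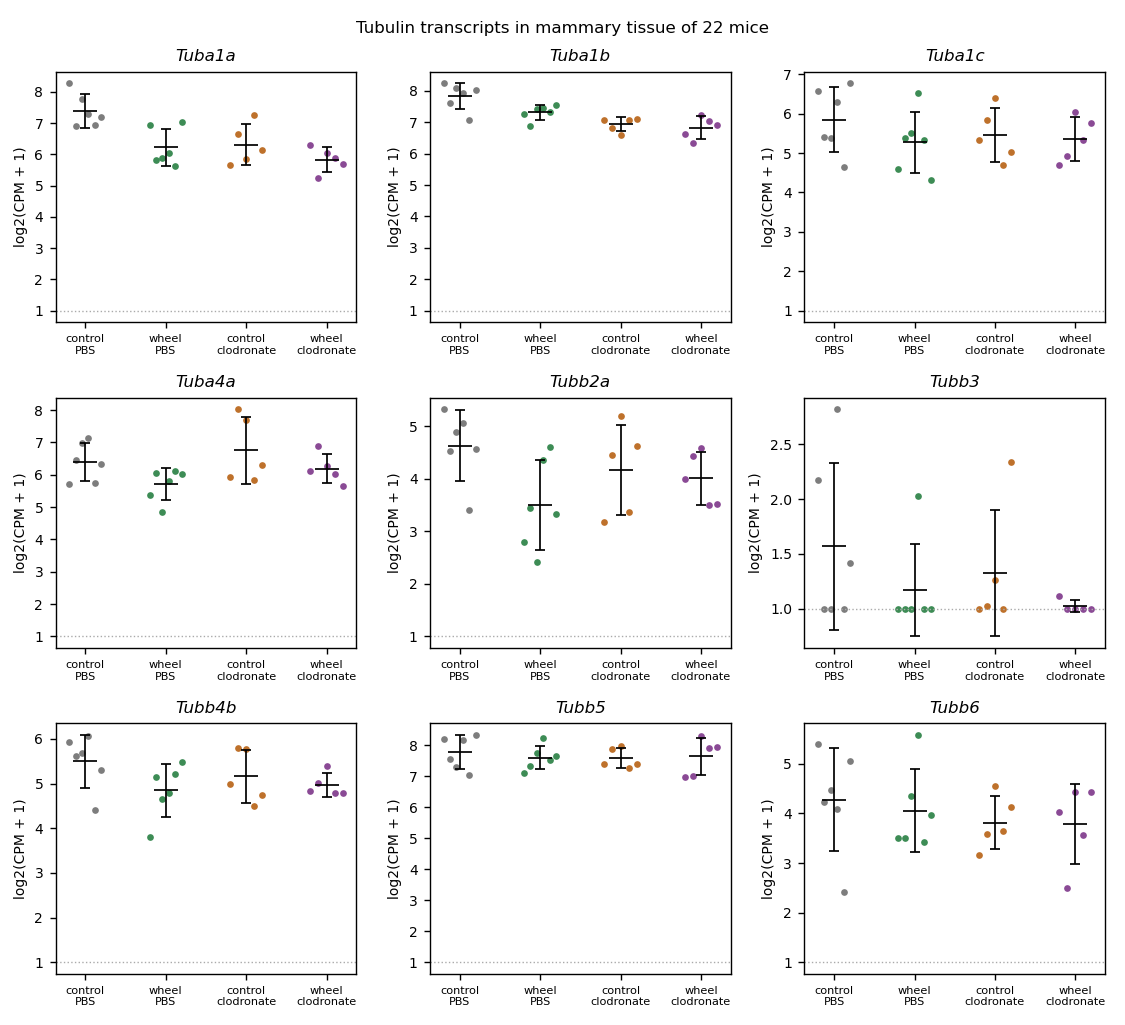
Level of each tubulin gene, as log2(CPM + 1), in every mouse (points) of the 4 groups, with the group mean and SD (bars) and the floor of the deposited values (dotted line). The control PBS mice have the highest mean in 8 of the 9 panels, the exception being Tuba4a, and the groups overlap in all of them.

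The first question of the design was whether access to a wheel changed the tissue. With PBS liposomes, all 9 tubulin genes had a lower mean in wheel-running than in control mice, but 0 of 9 passed an adjusted p of 0.05 (limma over all genes, Benjamini-Hochberg). None of the 15138 genes tested passed in this comparison (0%), 744 of them had an unadjusted p under 0.05, and 623 of those were lower. Over all genes 63.8% had a lower mean in wheel-running mice, and with upper-quartile scaling 51.3% had, with 287 lower and 263 higher at an unadjusted p under 0.05. The 9 tubulin genes were all lower with that scaling as well, with a median change of -0.48. The median change of the 9 was -0.57 on the log2(CPM + 1) scale, beside -0.08 over all genes tested. Tuba1b, Tuba1c and Tubb6 are mouse counterparts of genes in the hypoxia signature that the study scored in these mice, and their changes were -0.51, -0.57 and -0.22. Some tubulin genes followed genes of dividing cells from mouse to mouse, as described further on, and the means of those genes were lower in the same comparison too. All 10 mitosis genes of the proliferation list had a lower mean in wheel-running mice, 0 were called and 1 had an unadjusted p under 0.05, their median change was -0.97, and their sum had a median of 220.5 CPM in control PBS and 76.3 CPM in wheel PBS mice. Within groups, Pearson's r with the mean log2 level of these 10 genes was 0.91 for Tuba1c, 0.85 for Tubb5 and 0.83 for Tubb6. It was 0.65 for Tubb2a and -0.12 for Tuba1a. In the same order, the changes of these 5 tubulin genes in this comparison were -0.57, -0.17, -0.22, -1.14 and -1.17. The part of the mitosis genes in the tubulin levels was not tested.

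Tuba1a, the neuronal α-tubulin that other cells also make, had the lowest unadjusted p of the 9 in this comparison. In control PBS mice it lay between 119.0 and 310.3 CPM (median 150.1), in wheel PBS mice between 48.9 and 129.0 (median 61.4). All 6 wheel-running mice were below the mean of the control mice (178 ± 74.0 against 79.6 ± 36.03 CPM, SD, n = 6 each), although wheel mice 1 and 6, at 122 and 129.0 CPM, reached into the control range. The log2 change was -1.17 ± 0.29 (SE), with an adjusted p of 0.961. With clodronate liposomes, Tuba1a was 49.5, 99.5, 57.3, 151.6 and 69.2 CPM in the 5 control mice and 77.7, 37.0, 65.1, 57.5 and 50.7 CPM in the 5 wheel-running mice. There the groups overlapped widely and the log2 change was -0.48 ± 0.32 (SE, adjusted p = 0.660).

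Tuba1b, a general α-tubulin, went from 134.6 to 300.4 CPM (median 251.5) in control PBS mice and from 118.0 to 187 CPM (median 164.5) in wheel PBS mice. All 6 wheel-running mice were below the control mean, while control mouse 5 at 134.6 CPM was lower than 5 of the 6 wheel-running mice. The log2 change was -0.51 ± 0.18 (SE, adjusted p = 0.987). Tuba1c, an α-tubulin that was low beside its neighbours on chromosome 15, was at 24.1 to 108.9 CPM (median 59.8) in control and 18.8 to 91.3 CPM (median 40.0) in wheel PBS mice, a log2 change of -0.57 ± 0.38 (SE, adjusted p = 0.987). Tuba4a, known from muscle and platelets, was at 51.7 to 138.5 CPM (median 83.1) and 27.9 to 68.5 CPM (median 59.2), a log2 change of -0.69 ± 0.35 (SE, adjusted p = 0.987).

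Among the β-tubulins, Tubb2a showed the largest difference between wheel and control mice with PBS liposomes. It was at 9.56 to 39.3 CPM (median 25.8) in control and 4.36 to 23.4 CPM (median 9.51) in wheel mice, so that the groups overlapped from 9.56 upward. Its log2 change was -1.14 ± 0.40 (SE, adjusted p = 0.987), and that of Tubb4b, a β-tubulin of most cell types, was -0.65 ± 0.29 (SE, adjusted p = 0.987). Tubb5, the leading β-tubulin, gave overlapping groups, with 130.02 to 322.7 CPM (median 238) in control and 137 to 297.5 CPM (median 193) in wheel mice. The log2 changes of Tubb5 (-0.17, 95% CI -0.69 to 0.35), Tubb6 (-0.22, 95% CI -1.14 to 0.70) and Tubb3 (-0.40 ± 0.29, SE) did not pass either.

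With clodronate liposomes, 8 of the 9 genes had a lower mean log2(CPM + 1) in wheel-running mice, 7 of 9 with a pseudocount of 5 or with scaling to reads assigned to genes, and 0 of 9 passed. In this comparison 1 of 15138 genes was called (0.00661%) and 49.3% of all genes had a lower mean. The median change of the 9 was -0.16 beside 0.00 over all genes. The changes ran from -0.57 for Tuba4a (95% CI -1.36 to 0.23) to 0.05 for Tubb5 (95% CI -0.53 to 0.62). Leaving out the 5 mice with high lymphocyte markers, which removes 3 of the 5 wheel clodronate mice, put Tubb5 at -0.59 and Tubb2a at 0.05 with 0 of 9 called. The median change of the 9 was then -0.46, beside -0.04 over all genes. Of the 9, 8 had a lower mean, and of all genes 55.8% had.

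The difference between the activity effects was tested as an interaction, and again 0 of 9 tubulin genes and 0 of 15138 genes (0%) passed. Over all genes 1147 had an unadjusted p under 0.05, and of the 9 members none had. All 9 estimates were above 0, from 0.10 for Tubb3 to 0.98 ± 0.59 (SE) for Tubb2a. Of all genes tested 40.8% had an estimate below 0, and 50.3% with upper-quartile scaling, where 0 of the 9 had. In these estimates the mean of wheel-running mice was less far below control mice with clodronate than with PBS liposomes. Tubb5 was the exception, with a mean 0.05 above control mice with clodronate. The control PBS mice enter both this difference and the comparison with PBS liposomes. Without the 5 mice with high lymphocyte markers, 7 of the 9 estimates were above 0, with Tubb5 at -0.35 and Tubb6 at -0.26. The median of the 9 was then 0.21, and 0.41 over all 22 mice. Over all genes tested these medians were 0.03 and 0.09.

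**Figure D2:**
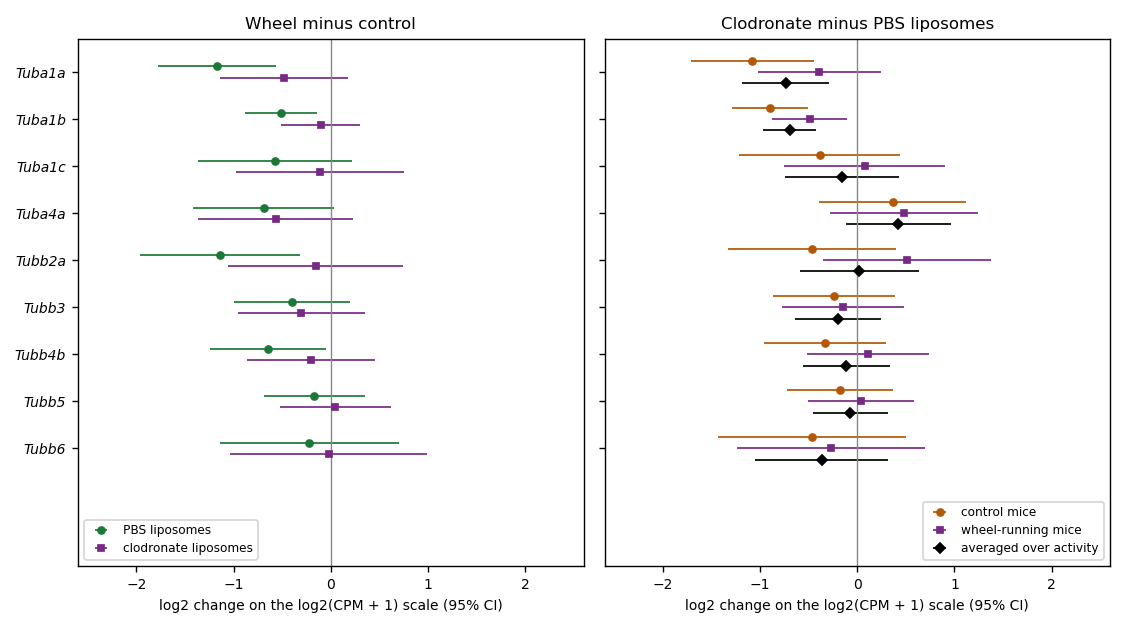
Log2 change of each tubulin gene with its 95% confidence interval on the log2(CPM + 1) scale, for activity within each liposome (left) and for liposome within each activity and averaged over activity (right). The averaged change of Tuba1b in the right panel, -0.70 with an interval from -0.97 to -0.42, is the value that passed the adjusted threshold.

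The second question was what the clodronate liposomes changed. Averaged over activity, Tuba1b was the tubulin gene that passed the test, and it fell. In the 12 mice with PBS liposomes Tuba1b was at 197 ± 58.0 CPM (SD), in the 10 with clodronate liposomes at 119 ± 22.3 CPM (SD), and all 10 were below the PBS mean. The control clodronate mice had 134.0, 113, 94.7, 132.9 and 136 CPM and the wheel clodronate mice 97.3, 79.6, 149.5, 131.8 and 118 CPM. The ranges with PBS and with clodronate overlapped from 118.0 to 149.5 CPM. The log2 change was -0.70 ± 0.13 (SE, 95% CI -0.97 to -0.42), that is to 0.618 of the PBS level on this scale, with an adjusted p of 0.0217. Of 15138 genes tested, 31 were called in this comparison (0.205%), all of them lower.

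The estimate for Tuba1b kept its direction in every fit of this comparison, and its call was close to the threshold. Without each of the 22 mice in turn the log2 change lay between -0.77 and -0.63 and the adjusted p between 0.00832 and 0.0656, with 17 of the 22 fits passing. The fits without control PBS mouse 1 (adjusted p = 0.0514), control PBS mouse 3 (0.0521), control clodronate mouse 2 (0.0577), control clodronate mouse 3 (0.0656) and wheel clodronate mouse 2 (0.0511) did not pass. Without the 5 mice with high lymphocyte markers the change was -0.88 ± 0.16 (SE) with an adjusted p of 0.0885, and 0 genes of all were called.

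Split by activity, Tuba1b was lower with clodronate in control mice (-0.90 ± 0.19, SE, adjusted p = 0.239) and in wheel-running mice (-0.49 ± 0.19, SE, adjusted p = 0.309). Neither passed, and the difference between these changes is the interaction given above (0.41, 95% CI -0.14 to 0.96). In control mice 0 of 15138 genes were called (0%, with 1058 at an unadjusted p under 0.05, 921 of them lower) and 0 of 9 tubulin genes. A lower mean was found in 8 of the 9, beside 65.4% of all genes. With upper-quartile scaling these were 8 of the 9 and 52.8%. Without control PBS mouse 5, the lowest of its group for Tuba1b, the change in control mice was -1.05 with an adjusted p of 0.0397. In wheel-running mice 1 of 15138 genes was called (0.00661%) and 0 of 9 tubulin genes, 4 of which had a lower mean, beside 49.9% of all genes. When the 5 mice with high lymphocyte markers were left out, 6 of the 9 had a lower mean, beside 58.9% of all genes.

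Tuba1a was lower in the same direction as Tuba1b without passing. Its level was 129 ± 75.5 CPM (SD, n = 12) with PBS and 71.5 ± 33.0 CPM (SD, n = 10) with clodronate liposomes, and 9 of the 10 clodronate mice were below the PBS mean, the exception being control mouse 4 at 151.6 CPM. The averaged log2 change was -0.74 ± 0.22 (SE, adjusted p = 0.169). Tuba4a went the other way in the estimate, 0.42 (95% CI -0.12 to 0.96), with 262, 207.8, 59.5, 55.6 and 77.9 CPM in the control clodronate mice. Mice 2 and 3 of that group stood well above all others in Tuba4a. The change of Tuba1c was -0.16 (95% CI -0.74 to 0.43).

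For the β-tubulins the averaged changes were small and their intervals included 0. They were 0.02 for Tubb2a (95% CI -0.59 to 0.63), -0.07 for Tubb5 (95% CI -0.46 to 0.32), -0.11 for Tubb4b (95% CI -0.56 to 0.33), -0.20 for Tubb3 (95% CI -0.64 to 0.25) and -0.37 for Tubb6 (95% CI -1.05 to 0.32). All 5 intervals overlapped that of Tuba1b (-0.97 to -0.42), and the isotypes were not tested against each other. The median over the 9 members was -0.16, beside -0.04 over all genes tested. Leaving out the 5 mice with high lymphocyte markers put Tubb5 at -0.39 and Tubb6 at -0.60. The median over the 9 was then -0.39, beside -0.09 over all genes, with 0 of 9 called.

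Markers of macrophages, fibroblasts and adipocytes had lower means with clodronate liposomes, and none passed the test. Of 8 macrophage genes (among them Adgre1, Csf1r and Cd68), all 8 had a lower averaged mean with clodronate and 0 were called, 2 at an unadjusted p under 0.05. Their summed level was 174 to 457 CPM in control PBS, 195 to 392 in wheel PBS, 190.4 to 303 in control clodronate and 167 to 355 in wheel clodronate mice. Of 5 fibroblast genes, all 5 were lower with 0 called and 3 at an unadjusted p under 0.05, with sums of 1286 to 3154, 1341 to 2582, 1205 to 1868 and 1230 to 1887 CPM in the same order. The 8 adipocyte genes were all lower too, with 0 called and 3 at an unadjusted p under 0.05. All 8 skeletal muscle genes and all 12 lymphocyte genes had a higher averaged mean, with 0 called. The remaining lists held genes of both directions. Beside these lists, 57.4% of all genes tested had a lower averaged mean, and 50.1% with upper-quartile scaling. No macrophage or fibroblast marker was at the floor in all mice of a group. In whole tissue, fewer cells of a type and less RNA per cell cannot be told apart, and the part of these cells in the level of Tuba1b was not tested.

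α- and β-tubulin are built into microtubules as pairs, and their summed transcripts can be compared within each mouse. The 4 α-tubulins summed to 333 to 758 CPM (median 604) in control PBS, 279.6 to 399 (median 327) in wheel PBS, 282 to 531 (median 365) in control clodronate and 264 to 355 CPM (median 272) in wheel clodronate mice. The 5 β-tubulins summed to 165 to 438 (median 343), 167 to 394 (median 259), 197 to 367 (median 239) and 185 to 402 CPM (median 290.1) in the same order. The group medians of the α sum were thus spread more widely than those of the β sum. The ratio of the α to the β sum was 1.80 ± 0.41 (SD, n = 6) in control PBS, 1.36 ± 0.36 (SD, n = 6) in wheel PBS, 1.47 ± 0.27 (SD, n = 5) in control clodronate and 1.13 ± 0.28 (SD, n = 5) in wheel clodronate mice. These sums and ratios are descriptions and were given no test.

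The share of each isotype in its family also varied. Tuba1a made up 31.2% ± 6.7 (SD, n = 6) of the α-tubulin CPM in control PBS, 23.3% ± 8.7 (SD, n = 6) in wheel PBS, 22.5% ± 11.1 (SD, n = 5) in control clodronate and 19.9% ± 5.5 (SD, n = 5) in wheel clodronate mice. Tuba4a made up 16.3%, 16.1%, 31.4% and 26.3% in the same order, and 49.3% in control clodronate mouse 2, the highest of all mice. The share of Tubb5 in the β-tubulins was steadier, with group means of 70.4% to 76.6%.

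**Figure D3:**
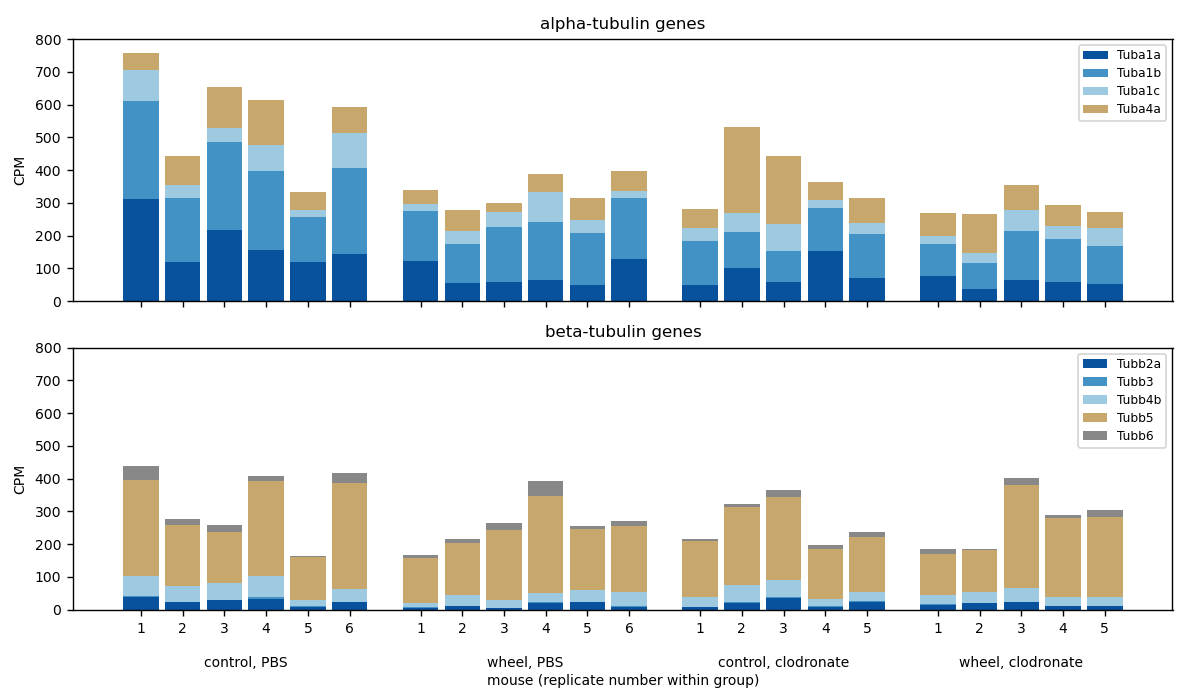
CPM of the 4 α-tubulin genes (top) and the 5 β-tubulin genes (bottom) stacked for each of the 22 mice, ordered by group. The α-tubulin stacks of the control PBS mice reach 333 to 758 CPM, and Tubb5 fills most of every β-tubulin stack.

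Within the groups, some pairs of isotypes varied together from mouse to mouse. Relations were computed on log2(CPM + 1) after the group mean was subtracted, so that they describe mice treated alike, with a permutation test over 22 mice and adjustment over 126 relations (36 pairs of members and 90 relations of a member with a marker score). Of the 36 pairs 30 had a positive r (median 0.38), and 6 passed. The same shares were not computed for pairs of other genes, so these counts do not set tubulins apart. Tuba1c and Tubb5 were the closest pair (r = 0.86, rho = 0.86, p = 2e-05, adjusted p = 0.00084), and r was 0.84 without the 2 mice farthest from the median of Tubb5. Tubb6 went with both, with r = 0.72 to Tubb5 (rho = 0.67, p = 0.00058, adjusted p = 0.0146) and r = 0.70 to Tuba1c (rho = 0.60, p = 0.0007, adjusted p = 0.0147), and with r = 0.60 and 0.63 without the 2 farthest mice. Without the 5 mice with high lymphocyte markers, Tuba1c and Tubb5 still passed (r = 0.88, adjusted p = 0.0277), while Tubb6 with Tubb5 (r = 0.72, adjusted p = 0.0603) and with Tuba1c (r = 0.67, adjusted p = 0.0757) did not.

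The other 3 pairs that passed were among Tuba4a, Tubb2a and Tubb4b. Tubb2a and Tubb4b had r = 0.68 (rho = 0.62, p = 0.00344, adjusted p = 0.0433), Tuba4a and Tubb4b r = 0.68 (rho = 0.73, p = 0.00271, adjusted p = 0.0379) and Tuba4a and Tubb2a r = 0.65 (rho = 0.63, p = 0.00536, adjusted p = 0.0482), and without the 2 farthest mice r was 0.66, 0.69 and 0.59. These adjusted p-values were close to the threshold, and leaving out a mouse ended the call in 14, 12 and 17 of 22 fits. The pair of Tuba1c and Tubb5 passed in 22 of 22 such fits, with r from 0.84 to 0.93. The relations of Tubb6 with Tubb5 and with Tuba1c passed in 20 and were lost without control PBS mouse 5 (adjusted p up to 0.0615 and 0.0772) or wheel PBS mouse 4. Without the 5 mice Tuba4a and Tubb4b passed (r = 0.71, adjusted p = 0.0339), and Tubb2a and Tubb4b (r = 0.70, adjusted p = 0.0757) and Tuba4a and Tubb2a (r = 0.59, adjusted p = 0.169) did not. The 2 sets of 3 genes were not shown to be separate, since Tubb4b had r = 0.51 with Tubb5 (adjusted p = 0.0707) and Tubb2a r = 0.54 with Tuba1c (adjusted p = 0.0869), which was 0.70 without the 5 mice (adjusted p = 0.0603). Tuba1a and Tuba1b, alike in nearly all coding bases, had r = 0.47 (rho = 0.48, p = 0.0287, adjusted p = 0.106).

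Tuba1c, Tubb5, Tubb6 and Tubb2a followed the genes of dividing cells. The proliferation score, the mean log2(CPM + 1) of 10 genes of mitosis such as Mki67, Top2a and Plk1, went from 1.34 in control PBS mouse 5 to 4.48 in control PBS mouse 1, and from 1.53 to 4.52 among wheel PBS mice. Its r was 0.91 with Tuba1c (rho = 0.90, permutation p = 1e-05, the smallest that the permutations can give, adjusted p = 0.00063), 0.85 with Tubb5 (rho = 0.88, permutation p = 1e-05, adjusted p = 0.00063) and 0.83 with Tubb6 (rho = 0.79, permutation p = 4e-05, adjusted p = 0.00126). Without the 2 farthest mice r was 0.88, 0.83 and 0.81. All 3 passed without any 1 of the 22 mice, and without the 5 mice with high lymphocyte markers r was 0.91, 0.89 and 0.81. Tubb2a had r = 0.65 (rho = 0.64, adjusted p = 0.0474, passing in 6 of 22 fits without a mouse) and r = 0.83 without the 5 mice (adjusted p = 0.0277). With upper-quartile scaling its adjusted p was 0.0619. Tuba1b had r = 0.43 and Tuba1a r = -0.12, neither of which passed. The share of other genes with such a relation to this or another marker score was not computed, so these relations do not set tubulins apart. The summed level of the 10 genes was 17.3 to 306 CPM (median 220.5) in control PBS, 20.6 to 318 (median 76.3) in wheel PBS, 16.1 to 223 (median 129.8) in control clodronate and 45.9 to 209 CPM (median 110.9) in wheel clodronate mice.

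**Figure D4:**
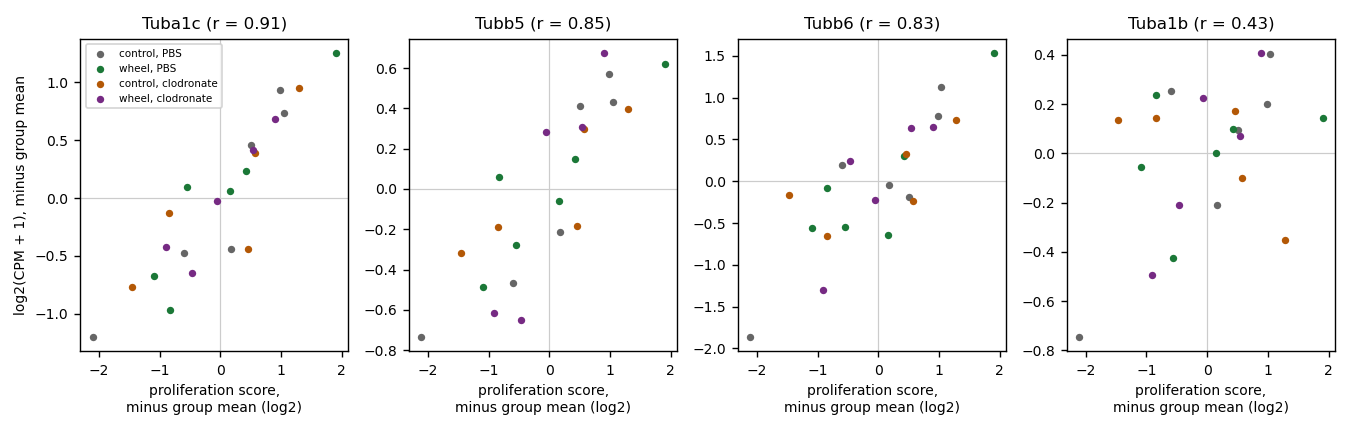
Level of Tuba1c, Tubb5, Tubb6 and Tuba1b against the proliferation score, each as log2 minus the mean of its group, with a point for each of the 22 mice coloured by group. Tuba1c, Tubb5 and Tubb6 rise with the score (r of 0.91, 0.85 and 0.83), and Tuba1b less so (r = 0.43).

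Other marker scores gave fewer relations, and several depended on the 5 mice with high lymphocyte markers. Of the 14 relations that passed over all mice, 8 passed without these 5 mice, 6 did not, and 4 others passed. One of the 8, that of Tuba4a with the lymphocyte score, used the same 17 mice both times. The adipocyte score had r = -0.70 with Tuba1c (rho = -0.74, p = 0.00154, adjusted p = 0.0277) and -0.61 with Tubb5 (rho = -0.61, p = 0.00192, adjusted p = 0.0302), and -0.65 and -0.56 without the 2 farthest mice, passing in 19 and 17 of 22 fits without a mouse. Without the 5 mice the first passed (r = -0.77, adjusted p = 0.0311) and the second did not (r = -0.67, adjusted p = 0.0603). The platelet score, from 4 genes of which 2 were above the floor in at least 5 mice, had r = 0.63 with Tubb5 (rho = 0.64, p = 0.00423, adjusted p = 0.0474) and r = 0.44 without the 2 farthest mice, passing in 6 of the 22, and r = 0.50 without the 5 mice (adjusted p = 0.181). The 4 relations that passed in the 17 mice alone were those of the endothelium score with Tuba1c (r = -0.74, adjusted p = 0.0301), Tubb5 (r = -0.67, adjusted p = 0.0311) and Tubb2a (r = -0.76, adjusted p = 0.0408), and of the platelet score with Tubb3 (r = 0.69, adjusted p = 0.0301). Over all 22 mice these had r = -0.56, -0.41, -0.50 and 0.51. Lymphocyte markers split the mice, so their relation was computed in the 17 mice with low values, where r with Tuba4a was 0.79 (rho = 0.79, p = 0.00469, adjusted p = 0.0474). It passed in 8 of 22 fits without a mouse, and with upper-quartile scaling its adjusted p was 0.0619. Leaving out a mouse with high lymphocyte markers could change only the adjusted p, since such mice were not in this relation. In those 17 mice the score lay between 1.00 and 1.37, at or just above the floor.

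Tuba4a had r = 0.64 with the score of 8 skeletal muscle genes such as Acta1 and Ckm (rho = 0.59, p = 0.00748, adjusted p = 0.0554), and r = 0.48 without the 2 farthest mice. The control clodronate mice 2 and 3, highest in Tuba4a with 262 and 207.8 CPM, had muscle scores of 10.99 and 7.58, and the whole range was 1.95 to 10.99. The summed muscle genes went from 30.6 to 22034 CPM over the mice. Tuba1b had r = 0.62 with the macrophage score (rho = 0.66, p = 0.0109, adjusted p = 0.0647), and r = 0.45 without the 2 farthest mice. Its r was 0.19 with the fibroblast score and 0.01 with the adipocyte score, neither of which passed. Tuba1b had r = 0.61 with the platelet score (adjusted p = 0.0647) and -0.53 with the mammary epithelium score (adjusted p = 0.0707), and Tubb6 had r = 0.63 with the macrophage score (adjusted p = 0.0554), or 0.43, -0.64 and 0.61 without the 2 farthest mice. In all, 19 relations had an adjusted p from the threshold of 0.05 up to 0.1, and none of them counts as passing.

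**Figure D5:**
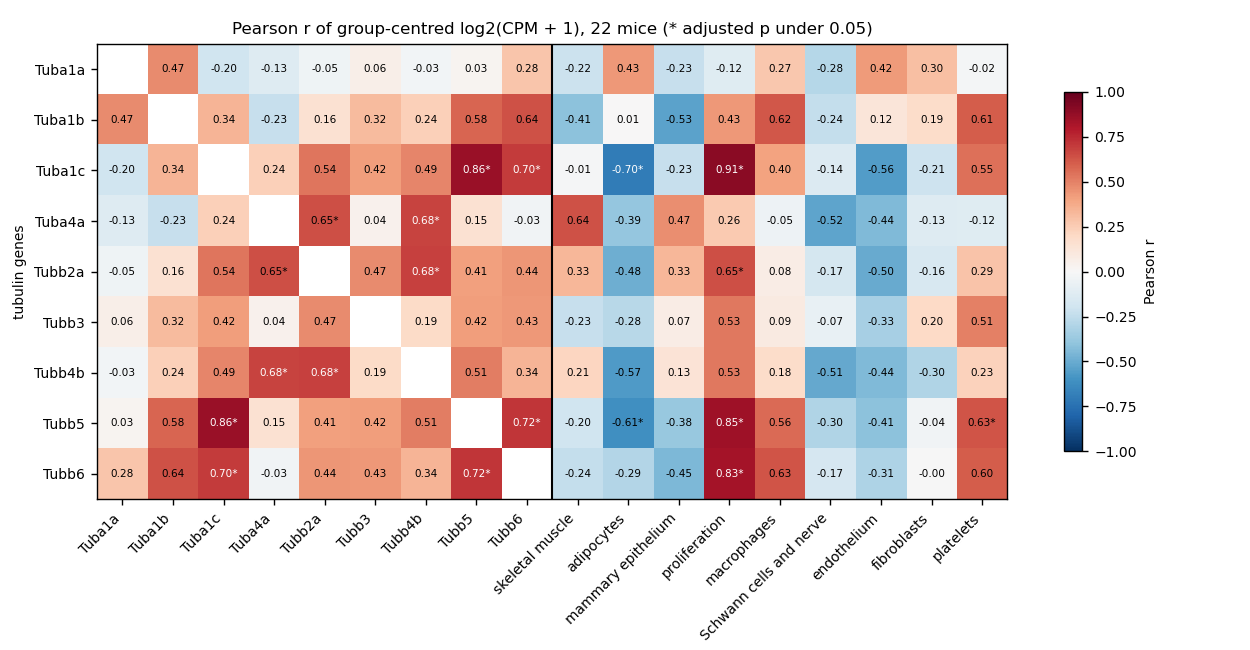
Pearson r over 22 mice, after subtraction of group means, between the 9 tubulin genes (left of the line) and with 9 marker scores (right of it), with red for positive and blue for negative r and an asterisk where the adjusted p was under 0.05. The strongest cells are Tuba1c with proliferation (0.91) and Tuba1c with Tubb5 (0.86).

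As a description, the genes most like each isotype were sought by r over the same 22 mice among 9346 other genes above the floor in every mouse. Tuba1c was closest to Cdca8 (r = 0.93), a part of the complex that corrects chromosome attachment, Cit (0.92), a kinase of cell division, and Hsp90ab1 (0.90), a chaperone. Tubb5 was closest to Smc2 (0.89), a condensin subunit, Nop16 (0.88), a nucleolar protein, and Slc7a1 (0.87), a transporter of basic amino acids. Tubb6 was closest to Gnl3, Eif4a1 and Npm1 (0.88, 0.87 and 0.87), genes of the nucleolus and of translation. Tuba1b had Arhgdia (0.86), Mphosph8 (0.83) and Itpa (0.82), and Tuba1a had Matn2 (0.83), a matrix protein, Npr3 (0.80) and Lpgat1 (0.78).

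Tuba4a was closest to Prdm1 (0.90), a transcription factor, Gltp (0.89) and Mapkapk3 (0.89). Tubb2a was closest to Calm2 (0.88), a calmodulin gene, Jun (0.86) and Tbcb (0.85), a cofactor of α-tubulin folding. Tubb4b was closest to Dhcr7 (0.87), an enzyme of cholesterol synthesis, Cyp26b1 (0.82), which breaks down retinoic acid, and Pfdn1 (0.81), a prefoldin subunit. Tubb3, at the floor in 14 mice, had Cenpl (0.76), Tbck (0.73) and Polr2e (0.70) among 9347 genes. The points share library and depth, and no test was made.

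The other genes that make, fold, modify or organise tubulin were counted in 4 lists, and 0 of their 59 measured members passed the test in any of the 6 comparisons. Of 11 other tubulin genes, 7 were above the floor in enough mice, and Tubg1, the γ-tubulin that starts microtubules, came closest, at 23.2 CPM with PBS and 16.5 CPM with clodronate liposomes (averaged log2 change -0.48, adjusted p = 0.195, and -0.63 in wheel-running and -0.33 in control mice). The next were Tuba8 in the averaged comparison (0.74), Tubg2 (0.39 for wheel with PBS, and -0.46 for clodronate in wheel-running mice), Tubb4a (-0.12 for wheel with PBS and -0.12 for clodronate in control mice), and Tubd1 and Tube1 (0.59 and -0.29 for wheel with clodronate, 0.68 and -0.37 for the interaction).

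All 20 genes of tubulin folding were measured: prefoldin and the CCT chaperonin, which receive new tubulin, and the cofactors that join α to β. With PBS liposomes 18 of the 20 had a lower mean in wheel-running mice, 5 of them at an unadjusted p under 0.05, and the median change was -0.27. With upper-quartile scaling 17 of the 20 were lower, 1 at an unadjusted p under 0.05, with a median of -0.18. The share of all genes with a lower mean was 63.8%, and 51.3% with that scaling. The lowest p-values belonged to Cct7 (-0.41, 144 against 108 CPM) and Pfdn6 (-0.44, 32.1 against 23.4 CPM), both with an adjusted p of 0.987. With clodronate liposomes 10 of 20 were lower, 14 with upper-quartile scaling and 7 with scaling to assigned reads, led by Pfdn1 (-0.29) and Tbcd (-0.32), and the interaction was led by Cct2 (0.48, adjusted p = 0.649) and Cct7 (0.41). For clodronate the leading genes were Cct2 (-0.40) and Cct4 (-0.46) in control mice, Tbcb (-0.33) and Pfdn1 (-0.24) in wheel-running mice, and Tbcb (-0.28) and Pfdn1 (-0.26) in the averaged comparison. In the same order 17, 10 and 17 of the 20 were lower, beside 65.4%, 49.9% and 57.4% of all genes. With upper-quartile scaling 15, 10 and 15 were lower, beside 52.8%, 50.6% and 50.1%.

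Of 15 genes listed for modification and autoregulation, 13 were tested. Ttll1, which adds glutamate side chains to tubulin tails, went from 4.38 CPM with PBS to 1.57 CPM with clodronate liposomes (averaged log2 change -0.92, adjusted p = 0.191, and -1.16 in wheel-running mice), and Ttll5 of the same family had -0.43 averaged and -0.50 in control mice, where Atat1, the α-tubulin acetylase, had -0.67. Ttll7 was lower in wheel-running mice with PBS (-0.86) and with clodronate liposomes (-1.10, adjusted p = 0.336), and Ttl, which restores the last tyrosine of α-tubulin, had -0.70 for wheel with clodronate and -0.40 for clodronate in wheel-running mice. Ttc5, which starts the decay of tubulin messenger RNA, was low, with 2.44 and 1.56 CPM in control and wheel mice with PBS (-0.44) and an interaction of 0.53, and Agtpbp1 had an interaction of -0.26.

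Of 21 genes of microtubule dynamics and nucleation, 19 were tested. Mapre1, which binds growing microtubule ends, was 145 CPM in control and 121 CPM in wheel mice with PBS liposomes (-0.26, adjusted p = 0.987), -0.25 for clodronate in control mice and 0.33 for the interaction, and Tubgcp2, of the γ-tubulin complex, had -0.43 for wheel with PBS. Stmn2, a stathmin of neurons, was higher in wheel than in control mice with clodronate liposomes (8.48 against 2.71 CPM, log2 change 1.29, adjusted p = 0.275) and had an interaction of 1.53. Map2 had -1.03 in the same comparison and 0.89 for clodronate in control mice, and Mapt and Map1b had 1.01 and -0.64 for clodronate in wheel-running mice and 0.83 and -0.45 averaged. All these log2 changes are on the log2(CPM + 1) scale, and none passed.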

How the data were processed

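RNA from the mammary tissue of 22 mice was sequenced with the Lexogen QuantSeq 3′ FWD kit. Per the labels, groups and replicate numbers are those of separate mice. Per mouse, the authors deposited CPM, a signal scaled to the library total, for every gene, with values under 1 raised to 1. Their processing notes name STAR 2.5.3a and GRCm38 without giving their use, and the series' text names the mouse genome of RefSeq; the counting tool is not given in the sources used here. All values above the floor were whole multiples of the value of 1 read (within 0.05 reads), and this gave the depth of 13256467 to 20484578 reads. Values of up to 13 to 20 reads are hidden by the floor, so no count model was fitted. Each file held 52640 entries, 4 of which name no gene and were removed (ambiguous, multimapping, no feature and unmapped reads, with medians of 0.54%, 18.2%, 13.7% and 6.86% of reads). For 106 symbols listed more than once, none of them a member, 1 entry was kept.

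Values were tested as log2(CPM + 1) with limma 3.58.1 in R 4.3.3 (4 group means over all 22 mice, eBayes with a variance trend) for 15138 genes above 1 CPM in at least 5 mice, with Benjamini-Hochberg adjustment over all of them. Fold changes on this scale understate those of low genes. The scripts were tested on simulated data. Relations across mice used group-centred values, Pearson's r and Spearman's rho, and a two-sided permutation test (100000 permutations of mice within groups). A score is the mean log2(CPM + 1) of a marker list. Python 3.11.15, numpy 2.4.6, pandas 2.3.3, scipy 1.17.1 and BLAST 2.17.0 were used, with GENCODE M21 models and RefSeq promoters (GRCm38.p6). The ends of the α-tubulin coding sequences are not reported here. Pseudogene matches were sought in the last 400 bases at 97% identity.

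Named genes were the 9 members, genes passing a comparison and the 2 with the smallest p in each comparison from each of 4 lists, the 3 genes most like each member, and members with an outlying mouse. The members and lists were chosen with earlier results of these data known. Alternatives were pseudocounts of 0.1 and 5, scaling by the upper quartile or by reads assigned to genes, no filter, a mean of at least 5 CPM, no variance trend, the compared groups alone, the replicate number as a block, each mouse left out and, chosen after seeing the data, the 5 mice with high lymphocyte markers left out and the gene lists under both scalings.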

Additional observations from a re-analysis of the deposited data

Results flagged for a closer look

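Among the 36 combinations of a tubulin gene and a group, 3 held a mouse far from the rest of its group by Dixon's criterion, and all 3 concern Tubb3 close to the floor of 1 CPM. Chance flags about 1.8 where values have no floor. Where all other mice of a group are at the floor, any value above it is flagged. Wheel PBS mouse 4 had 3.08 CPM while the other 5 mice of its group were at the floor. Control clodronate mouse 5 had 4.07 CPM and the others of its group 1.00 to 1.40 CPM. Wheel clodronate mouse 1 had 1.17 CPM, or 17 reads, and the others were at the floor.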

How the results depend on the processing

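The call of Tuba1b with clodronate, averaged over activity, passed with other pseudocounts, scalings and filters (adjusted p from 0.0166 to 0.0492). The number of members called was 0 without a variance trend (adjusted p = 0.0581), 0 with the replicate block (log2 change -0.65, adjusted p = 0.0771), 0 without the 5 mice with high lymphocyte markers, and 0 to 1 without each mouse in turn. For clodronate in control mice it was 0 to 1 without each mouse, 1 without control PBS mouse 5. All other counts of members called stayed at 0. Over all genes, the averaged comparison had 31 calls, 14 with upper-quartile scaling, 20 with scaling to assigned reads, 20 without a variance trend, 54 when the mean had to reach 5 CPM, 11 with the replicate block and 0 without the 5 mice. Same-numbered mice of 2 groups correlated at -0.39 to 0.52 in their deviations from the group mean, with means from -0.13 to 0.18 for pairs of groups. Mice of different numbers were not compared, so these values cannot decide whether the numbers pair the mice. The 6 relations between members became 3 with upper-quartile scaling, 2 without the 5 mice, and 1 to 8 without each mouse, 1 without control PBS mouse 5 or wheel PBS mouse 4 and 3 without control PBS mice 2, 4 or 6, wheel PBS mice 2 or 5 or control clodronate mouse 4. The 8 relations with marker scores became 5 with upper-quartile scaling, 14 with the replicate block and 3 to 14 without each mouse, 3 without wheel PBS mice 1 or 4, 4 without control clodronate mouse 4, 14 without wheel PBS mouse 6, and 5 without control PBS mice 1, 2, 4, 5 or 6, wheel PBS mouse 2 or wheel clodronate mice 3 or 4. The cause of these shifts was not tested. Uncalled estimates close to 0 changed sign under some settings, those of Tubb5, Tubb6 and Tubb2a most often. Precision for Tubb3 is limited by the floor.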
